A study of Homo sapiens with 12 samples.

Results

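The arrays described here are 8 of the 12 in the series, chosen by their sample labels alone. On one side stood 4 arrays labelled with lapatinib but without PF04554878, namely 2 labelled lapatinib at 5 µM and 2 labelled Y15 at 1 µM plus lapatinib at 5 µM. On the other side stood 4 arrays labelled with PF04554878, namely 2 labelled PF04554878 at 1 µM and 2 labelled PF04554878 at 1 µM plus lapatinib at 5 µM. They are called the lapatinib side and the PF04554878 side below, although lapatinib was also present in 2 of the 4 PF04554878-side samples. Exposure lasted 24 h in every treated group. The other 4 arrays, 2 labelled Y15 at 1 µM and 2 labelled untreated, enter the fit and serve as points of comparison. All 12 samples carry the label SKBR-3, a breast cancer cell line, and were measured on Illumina expression arrays from total RNA. No vehicle is named in the labels, separate cultures for the replicates are not stated, and the extraction protocol speaks of frozen tissue as the RNA source. The spread behind the p-values is thus that of these samples alone and may be technical.

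Lapatinib is a kinase inhibitor that blocks the growth factor receptors EGFR and ERBB2 (HER2). PF04554878, also called defactinib, blocks the kinase activity of FAK, the focal adhesion kinase encoded by PTK2, and Y15 is a small molecule aimed at the main autophosphorylation site of the same kinase. FAK sits at integrin adhesions, where it works with SRC and the adaptors paxillin and p130Cas, and it also receives signals from growth factor receptors. In cells driven by ERBB2, lapatinib is known to shut down ERK and AKT signalling, while FAK inhibition is known for its effects on adhesion and spreading.

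Of 11564 genes tested, 6234 (53.9%) had 4 values on one side that did not overlap the 4 on the other, 3059 (26.5%) higher and 3175 (27.5%) lower on the lapatinib side. By limma with Benjamini-Hochberg adjustment, 7642 genes (66.1%) passed an adjusted p of 0.05. A gene is called separated below where it met both conditions, which 6082 genes (52.6%) did, 2993 (25.9%) higher and 3089 (26.7%) lower on the lapatinib side. Among the separated genes, 1112 (9.62%) differed at least 2-fold, 536 (4.64%) higher and 576 (4.98%) lower. Values are log2 intensities on a scale that leaves background in, which shrinks folds, above all those of dim genes. Differences are given as the lapatinib side minus the PF04554878 side, with the standard error of the fit. Separated genes were thus the majority, and any group of genes has to be read against that share. The median difference of all genes was -0.01.

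**Figure D1:**
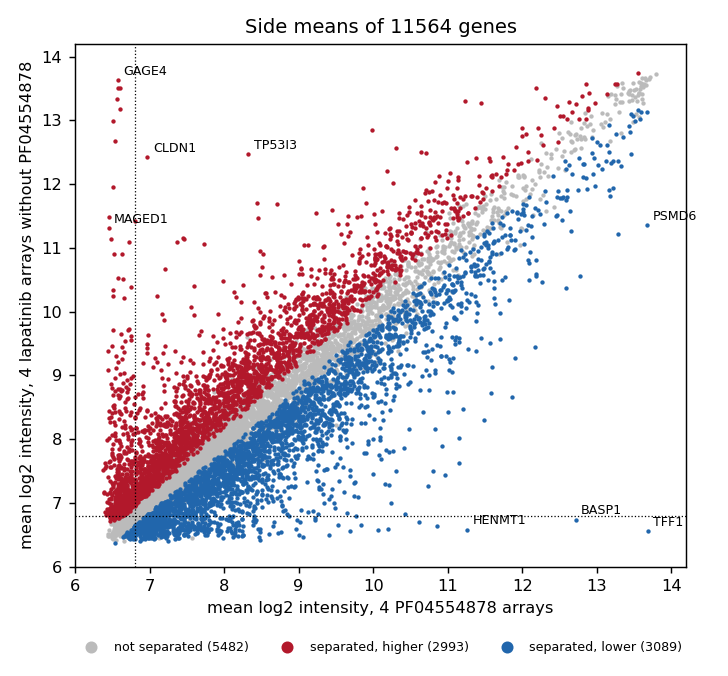
Each point is 1 of 11564 genes, with its mean log2 intensity over the 4 lapatinib-side arrays on the vertical axis and over the 4 PF04554878-side arrays on the horizontal axis. The 2993 separated genes in red lie above the diagonal, the 3089 in blue below it and the 5482 others in grey along it, and genes such as MAGED1 and TFF1 lie at the dotted background cutoff on one side only.

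Labels on one side differed far less among themselves than the sides did. The median absolute difference per gene was 0.29 between the sides, 0.12 between Y15 plus lapatinib and lapatinib, and 0.11 between PF04554878 plus lapatinib and PF04554878. Across genes, arrays of one label correlated at 0.994 to 0.995 and arrays of different labels on the same side at 0.983 to 0.987, while arrays of opposite sides correlated at 0.873 to 0.886. These correlations describe the arrays only, since genes are not independent replicates. Of the 6082 separated genes, 177 had a difference between labels on one side that was larger than the difference between the sides. The lack of overlap by which these genes were chosen itself limits such differences, so this count carries little weight. Each array of the lapatinib side had between 9807 and 9894 of the tested genes above background, and each array of the PF04554878 side between 9771 and 9902. All arrays carry nearly the same distribution of values, so these counts were bound to be alike. The narrowest separated gene was ZNF664, a zinc finger gene, whose sides lay 4.18e-05 log2 units apart (difference 0.39), while KLF13, another zinc finger gene, just overlapped (difference 0.23).

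Genes of the cell line itself were read first. ESR1, the oestrogen receptor that SK-BR-3 cells are known to lack, stood at 9.76 and 9.94 with lapatinib and at 10.49 and 10.39 with Y15 plus lapatinib, against 10.11 and 9.99 with PF04554878 and 10.47 and 10.35 with PF04554878 plus lapatinib. The sides overlapped, and the difference was -0.09 ± 0.08 (adjusted p = 0.346, limma). CDH1, E-cadherin, which this line is also known to lack, stood between 11.39 and 11.62 on the lapatinib side and between 12.20 and 12.64 on the PF04554878 side, both far above the background cutoff of 6.80. ERBB2, the gene the line is known to carry in many copies, ranged from 8.29 to 8.56 on the lapatinib side and from 8.67 to 9.16 on the PF04554878 side (-0.54 ± 0.06), beside 9.35 in the untreated arrays. These levels go against the cell line label on both sides, so the samples are called by their treatment labels only, and every direction below rests on those labels. Whether both sides came from the same cells was not tested, so a difference between them cannot be assigned to the drugs.

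Neighbours of ERBB2 that are co-amplified with it in the line moved little. GRB7, an adaptor of receptor kinases, was separated with a difference of 0.20 ± 0.07 (adjusted p = 0.0158), a call that ended without lapatinib replicate 1 (adjusted p = 0.0735) or Y15 plus lapatinib replicate 1 (adjusted p = 0.0815). PGAP3 (-0.03 ± 0.07), MIEN1 (0.14 ± 0.07) and STARD3 (0.37 ± 0.09) had overlapping sides. EGFR stood between 6.95 and 7.26 on the lapatinib side and between 6.84 and 6.94 on the PF04554878 side, a separated but dim difference of 0.24 ± 0.06. ERBB3, the partner receptor of ERBB2, was higher on the lapatinib side by 0.69 ± 0.10. PTK2, which encodes the target of both FAK inhibitors, was lower on the lapatinib side by 0.31 on the log2 scale (10.12 to 10.36, against 10.43 to 10.68), and its relative PTK2B did not separate (0.09 ± 0.06, adjusted p = 0.231).

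Markers of other cell types were mostly undetected on either side. Tested were 4 of 14 fibroblast markers on the array, 2 of 12 endothelial, 2 of 14 leukocyte, 2 of 6 basal epithelial and 2 of 8 adipocyte markers. Among those not above background were the defining genes PTPRC, PECAM1, CDH5, DCN, PDGFRB, KRT5, KRT14 and ADIPOQ. Of those tested, COL5A1, a collagen gene, was lower on the lapatinib side (6.67 to 6.83, against 7.95 to 8.86). CD68 and CD8A were lower by 0.64 and 0.49 (a second CD68 probe differed by 0.0049). The endothelial markers ESAM and ENG were higher by 0.50 and 0.23. Both were above background on enough arrays to be tested only through the lapatinib side. Their direction and summed levels thus carry no weight of their own. Summed log2 levels of the tested fibroblast markers ran from 27.0 to 27.4 on the lapatinib side and from 28.3 to 29.2 on the PF04554878 side, and those of the endothelial markers from 13.9 to 14.1 and from 13.2 to 13.3 in the same order. The summed levels of the leukocyte markers ran from 14.0 to 14.6 on the lapatinib side, against 15.2 to 15.6. The part of other cells in the results below was not tested. In bulk RNA, fewer cells of a kind and less RNA per cell cannot be told apart.

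The clearest genes were detected on one side and undetected on the other. Above background on all 4 lapatinib-side arrays and on 0 PF04554878-side arrays were 350 genes (3.03%), and 353 (3.05%) showed the reverse. Of the 350, 71 were above background on both untreated arrays and 231 on neither. Of the 353, 187 were above background on both untreated arrays and 101 on neither. Both sides thus held genes that the untreated arrays had and genes that they lacked.

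GAGE genes, a family of cancer-testis antigens on the X chromosome that is normally silent outside the germ line, led the genes that were detected only on the lapatinib side. GAGE4 stood at 13.79 and 13.76 with lapatinib and at 13.41 and 13.56 with Y15 plus lapatinib, near the top of the scale, against 6.64, 6.59, 6.56 and 6.49 in the PF04554878-side arrays. It was at least 114-fold higher on the lapatinib side (7.06 ± 0.06, adjusted p = 8.83e-20, limma), and the sides lay far apart. Another 9 GAGE genes (GAGE12J, GAGE12G, GAGE12C, GAGE12H, GAGE12F, GAGE12B, GAGE2A, GAGE7 and GAGE12E) differed by 4.37 to 6.93. Smaller differences were those of GAGE12D (mean 9.31 against 6.55) and GAGE10 (6.98 against 6.57). The untreated arrays stood at background for GAGE4, with a mean of 6.55. These probes match near-identical gene copies, so which member gave the signal is uncertain. Most of the copies also share their upstream letters. In the RefSeq promoter table (GRCh38.p14), 7 of 10 GAGE members held exactly the same 250 bases before the start, while GAGE12B, GAGE12G and GAGE10 matched GAGE12J at 34.8%, 27.6% and 43.2% of positions, aligned without gaps. A shift in the annotated start lowers such a match, so these low values do not show unlike sequence. The shared stretch is shown for GAGE12J (chrX:49321787-49322036, plus strand) to make plain how alike those 7 copies are. For contrast follow the same stretch of CLDN1 (chr3:190322447-190322696, minus strand), the largest rise outside the family, and of BASP1 (chr5:17216573-17216822, plus strand), the largest fall whose promoter the table held. Capitals mark each CG, the pair of letters at which DNA is methylated.

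GAGE12J: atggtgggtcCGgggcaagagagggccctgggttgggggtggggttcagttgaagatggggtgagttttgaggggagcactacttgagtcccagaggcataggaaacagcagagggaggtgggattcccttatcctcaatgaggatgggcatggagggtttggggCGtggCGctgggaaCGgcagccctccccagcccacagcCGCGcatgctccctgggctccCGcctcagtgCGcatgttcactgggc
CLDN1: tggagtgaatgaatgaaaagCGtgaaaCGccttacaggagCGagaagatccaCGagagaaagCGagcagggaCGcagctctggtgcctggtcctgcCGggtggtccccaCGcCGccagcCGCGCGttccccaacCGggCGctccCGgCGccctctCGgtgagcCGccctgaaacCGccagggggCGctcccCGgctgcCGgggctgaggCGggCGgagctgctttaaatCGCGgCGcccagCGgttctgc
BASP1: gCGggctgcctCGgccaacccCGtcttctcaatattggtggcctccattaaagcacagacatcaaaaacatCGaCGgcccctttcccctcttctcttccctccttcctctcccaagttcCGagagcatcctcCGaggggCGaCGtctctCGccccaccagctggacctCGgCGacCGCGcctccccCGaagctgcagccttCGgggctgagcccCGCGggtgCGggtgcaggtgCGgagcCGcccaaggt

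The GAGE12J stretch held 8 CG, that of CLDN1 28 and that of BASP1 21. As many or more were found in 55.8%, 15.5% and 29.8% of the 27305 promoters in the table. A median of 15 CG stood before the 259 matched genes detected only on the lapatinib side and 18 before the 284 detected only on the PF04554878 side, beside 21 before the 9299 matched genes tested. CG counts describe the letters only, and no methylation was measured.

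Beyond GAGE, the list of cancer-testis antigens held 23 genes on the array, of which 14 were not above background on enough arrays to be tested. The 9 tested were MAGEA1, XAGE2, PRAME, MAGEA6, MAGEA3, MAGEA10, MAGEC2, SSX1 and MAGEA12, with differences of 0.20 to 3.84, all higher on the lapatinib side. The filter on dim probes was met through the lapatinib-side arrays alone by 8 of these 9 and by 10 of the 11 GAGE genes on the list. These thus had to be higher there, so their count carries no weight of its own. Antigens outside the list were seen in both directions, and those named here are examples, not a count. VCX2 averaged 10.21 on the lapatinib side and 6.66 on the PF04554878 side, and CT45A1 8.81 and 6.68 in the same order. CT83 averaged 6.44 on the lapatinib side and 7.22 on the PF04554878 side, and DDX43, a helicase of the same class of antigens, 6.58 and 7.68. On the list, PRAME was an exception in the untreated arrays, with 8.73, close to the 8.72 to 9.06 of the lapatinib side and above the 6.42 to 6.59 of the PF04554878 side. MAGEA1, the first tumour antigen recognised by T cells to be cloned, stood between 10.26 and 10.44 on the lapatinib side and between 6.45 and 6.53 on the PF04554878 side (3.84 ± 0.06). MAGEA6 (2.15 ± 0.08) and MAGEA3 (1.34 ± 0.07), also near-identical copies, were smaller rises, and MAGEA12 (0.20 ± 0.07) was the smallest. The antigens of this paragraph other than MAGEA1 are named after their values had been seen.

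CLDN1, a tight junction protein that seals epithelial layers, stood at 12.43, 12.58, 12.31 and 12.39 on the lapatinib side. On the PF04554878 side it stood at 7.48 and 7.38 with PF04554878 alone and at 6.49 and 6.52 with PF04554878 plus lapatinib. The difference was 5.46 ± 0.06 (adjusted p = 1.47e-18, limma), with no fold given since 2 of the 4 PF04554878-side arrays, those that also had lapatinib, were below background. SERPINA6, the corticosteroid-binding globulin, stood between 11.31 and 11.65 on the lapatinib side and between 6.39 and 6.57 on the PF04554878 side, at least 25.6-fold higher. SLC40A1, ferroportin, the cellular iron exporter, was at least 20.3-fold higher on the lapatinib side, with 11.04 to 11.28 against 6.40 to 6.53. CRIP1, a LIM domain protein, averaged 11.42 ± 0.41 on the lapatinib side and 6.81 ± 0.18 on the PF04554878 side (SD of 4 arrays each), a difference of 4.61 ± 0.11. Within the lapatinib side CRIP1 was lower with Y15 plus lapatinib than with lapatinib by 0.68 on the log2 scale, far less than the step between the sides.

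MAGED1, an adaptor protein of neurotrophin receptor signalling, differed from the genes above in the arrays outside the comparison. It stood at 11.42, 11.38, 11.32 and 11.13 on the lapatinib side and at 6.50, 6.42, 6.47 and 6.42 on the PF04554878 side, at least 22.8-fold higher. The untreated arrays averaged 10.89 and those labelled Y15 11.17, so only the PF04554878-side arrays lacked its signal. KDELR1, a receptor that returns proteins to the endoplasmic reticulum, stood between 9.42 and 9.65 on the lapatinib side and between 6.68 and 6.86 on the PF04554878 side, where 1 of 4 arrays was above background, with 10.20 in the untreated arrays. TRIP6, a LIM protein of focal adhesions, averaged 8.76 on the lapatinib side and 6.61 on the PF04554878 side, with 10.96 in the untreated arrays.

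Further genes detected only on the lapatinib side were GNG11, a G protein subunit (at least 17.3-fold), the imprinted growth suppressor NDN (at least 13.3-fold), the actin-binding calponin CNN3 (at least 13.1-fold) and LDHB, the lactate dehydrogenase B subunit (at least 10.9-fold). LDHB stood between 10.08 and 10.36 on the lapatinib side and between 6.46 and 6.54 on the PF04554878 side. TP53I3, a quinone oxidoreductase named for its induction by p53, was bright on both sides, with 12.33 to 12.62 and 8.29 to 8.37 in the same order (4.14 ± 0.07). The tightest separations in proportion to the spread, outside GAGE, were those of NLGN4X, a synaptic adhesion protein (9.32 to 9.43 against 6.40 to 6.51), SLFN11, a gene tied to sensitivity to DNA damage (9.58 to 9.71 against 6.57 to 6.67), and MAGEA1.

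**Figure D2:**
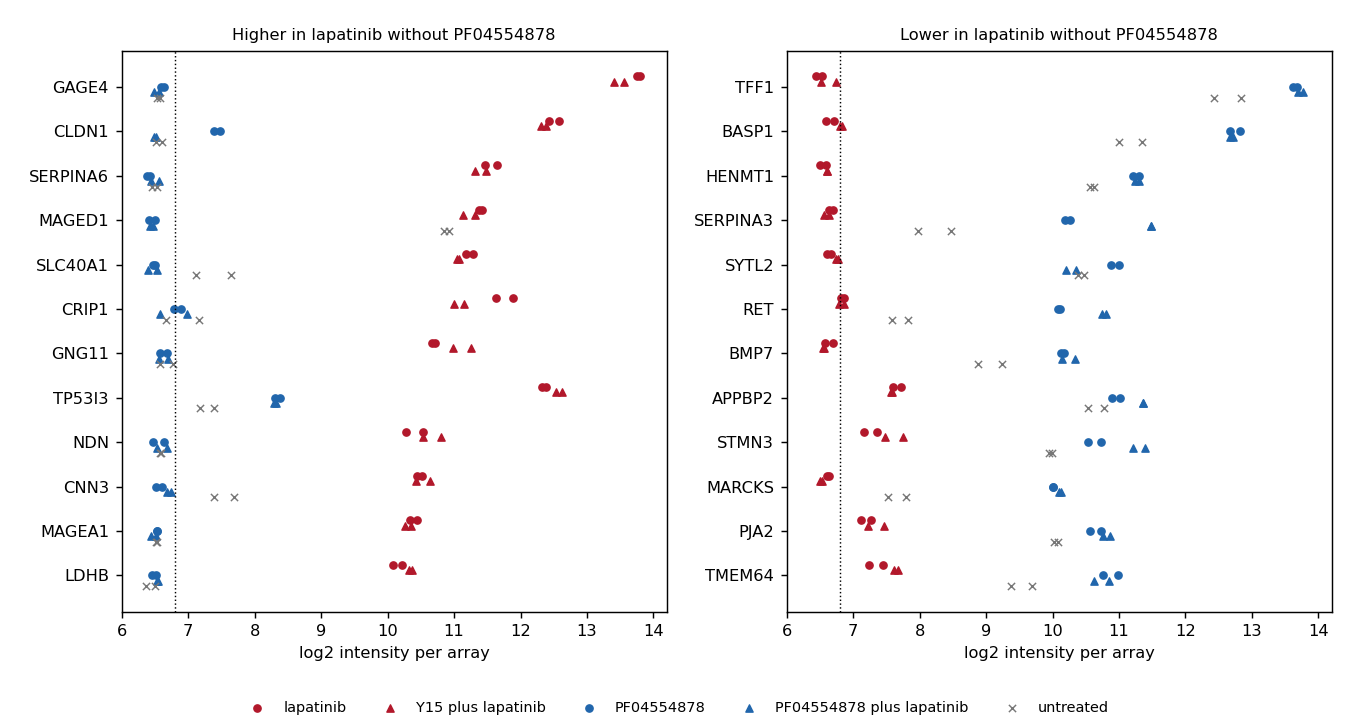
Log2 intensity of the 12 largest separated differences in each direction on each array, with red for lapatinib (circles) and Y15 plus lapatinib (triangles), blue for PF04554878 (circles) and PF04554878 plus lapatinib (triangles) and grey crosses for the untreated arrays, the dotted line marking the background cutoff of 6.80. The red and blue points of a gene never overlap, GAGE4 spans 13.41 to 13.79 against 6.49 to 6.64, and TFF1 6.44 to 6.74 against 13.61 to 13.77. The untreated points lie near blue for most genes but nearer red for some, among them MAGED1, SERPINA3, RET and MARCKS.

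In the other direction TFF1, a secreted trefoil peptide and a classic oestrogen-induced gene, showed the widest gap. It stood at 6.52 and 6.44 with lapatinib and at 6.52 and 6.74 with Y15 plus lapatinib, below background, against 13.61 and 13.68 with PF04554878 and 13.77 and 13.69 with PF04554878 plus lapatinib. The gene was at least 118-fold lower on the lapatinib side (-7.13 ± 0.08, adjusted p = 1.47e-18, limma). The untreated arrays averaged 12.63 and the Y15 arrays 13.50, near the PF04554878 side. BASP1, a membrane-bound signalling protein known from growing axons, stood at 6.59, 6.71, 6.80 and 6.83 on the lapatinib side, against 12.82, 12.67, 12.71 and 12.67 (-5.99 ± 0.08). HENMT1, which methylates the ends of piRNAs, stood between 6.50 and 6.61 on the lapatinib side and between 11.21 and 11.31 on the PF04554878 side, at least 22.1-fold lower and the tightest separation among the falls.

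SERPINA3, a secreted protease inhibitor, was off on the lapatinib side and varied on the other. Its values were 6.70, 6.64, 6.63 and 6.57 on the lapatinib side, against 10.26 and 10.19 with PF04554878 and 11.48 and 11.49 with PF04554878 plus lapatinib. It was at least 16.6-fold lower on the lapatinib side, and lapatinib added to PF04554878 went with a rise of 1.26. RET, a receptor kinase that oestrogen induces in breast cells, stood between 6.78 and 6.87 on the lapatinib side and between 10.09 and 10.80 on the PF04554878 side (-3.60 ± 0.07), with the untreated arrays between them at 7.71. The growth factor BMP7 was at least 10.5-fold lower and MARCKS, a protein kinase C substrate at the membrane, at least 9.60-fold lower. SYTL2, a vesicle transport protein (-3.91 ± 0.07), APPBP2 (-3.53 ± 0.07), the stathmin STMN3 (-3.53 ± 0.08), the ubiquitin ligase PJA2 (-3.46 ± 0.07) and TMEM64 (-3.31 ± 0.09) completed the 12 largest falls. Other probes of SYTL2 and TMEM64 differed by as little as -0.08 and -0.11.

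The pair Y15 plus lapatinib against PF04554878 plus lapatinib set the FAK inhibitors side by side at 1 µM each, with lapatinib at 5 µM and 24 h in both. In it 6278 genes (54.3%) passed limma, 3135 (27.1%) higher and 3143 (27.2%) lower with Y15, and 1183 of them (10.2%) differed at least 2-fold. The other 3 pairs across the sides gave 6639 genes (57.4%) for lapatinib against PF04554878, 6612 (57.2%) for lapatinib against PF04554878 plus lapatinib and 6409 (55.4%) for Y15 plus lapatinib against PF04554878. Within the sides, 1306 genes (11.3%) passed for Y15 plus lapatinib against lapatinib, 16 of them (0.138%) at least 2-fold, and 1027 (8.88%) for PF04554878 plus lapatinib against PF04554878, 48 of them (0.415%) at least 2-fold. Without 1 array, the counts within a side ran from 299 to 1315 and from 420 to 947 in the same order, and after background subtraction they were 513 and 600. With the replicate number as a block, 510 genes passed for Y15 plus lapatinib against lapatinib. These comparisons share arrays, so their counts are not independent. Across the sides, the pairs with lapatinib in both groups (6278 and 6612 genes) and those with lapatinib in only one (6639 and 6409) gave counts of like size.

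Some genes showed like sizes from pair to pair and others did not. GAGE4 was higher by 6.96 ± 0.09 with Y15 plus lapatinib against PF04554878 plus lapatinib, and by 7.25 ± 0.09 with lapatinib against PF04554878 plus lapatinib. TFF1 differed by -7.10 ± 0.12 and -7.24 ± 0.12 in the same order of pairs. Both genes lay at background on one side, which limits how far their differences can vary. CLDN1 was higher with Y15 plus lapatinib by 5.84 ± 0.09 against PF04554878 plus lapatinib and by 4.91 ± 0.09 against PF04554878, and FHL2 by 4.01 ± 0.16 and 2.53 ± 0.16. FHL2, a LIM protein that responds to serum and to actin dynamics, was the gene with the largest change within the PF04554878 side among those named. It stood between 10.94 and 11.16 on the lapatinib side, at 8.51 and 8.44 with PF04554878 and on average at 6.99 with PF04554878 plus lapatinib. Of the 1112 genes separated at least 2-fold, 742 passed in neither comparison within a side, 193 passed within the lapatinib side and 217 within the PF04554878 side.

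The untreated arrays, which the choice of sides did not use, lay nearer the PF04554878 side. Their mean was closer to the PF04554878-side mean for 3646 of the 6082 separated genes (59.9%) and for 750 of the 1112 separated at least 2-fold (67.4%). For 2823 of the 6082 it lay outside both side means. The arrays labelled Y15 were nearer the PF04554878 side for 3679 separated genes (60.5%) and 766 of those at least 2-fold apart (68.9%). Correlations across genes ran from 0.879 to 0.894 between the lapatinib side and these 4 arrays, and from 0.929 to 0.938 between the PF04554878 side and the same arrays.

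Gene groups were described by how many tested members were separated, beside 25.9% higher and 26.7% lower for all genes. Without the cancer-testis antigens, 31 lists held 738 members on the array, counted once per list, and 617 were tested. Of these, 21 met the filter on dim probes only through the lapatinib side and 9 only through the PF04554878 side, so for these the filter bore on the direction. Among receptors and ligands of the ERBB family, 4 of 11 were higher and 4 lower. LRIG1, a brake on ERBB receptors, was higher on the lapatinib side (9.50 to 10.20, against 8.39 to 8.68), and ERRFI1, another brake, was lower by 0.69. Of 19 genes that report ERK pathway output, 1 was higher and 6 were lower. CCND1, cyclin D1, stood between 10.31 and 10.50 on the lapatinib side and between 12.40 and 12.80 on the PF04554878 side (-2.21 ± 0.06). EGR1, an immediate early gene, was lower by 0.94, and PHLDA1 was higher by 0.79. Of 20 FOXO targets, which AKT signalling represses, 5 were higher and 9 lower, with TXNIP, an inhibitor of glucose uptake, at 7.85 to 8.25 on the lapatinib side, against 9.52 to 10.71. IRS1, the insulin receptor substrate, was lower too (6.89 to 7.21, against 8.47 to 8.71).

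**Figure D3:**
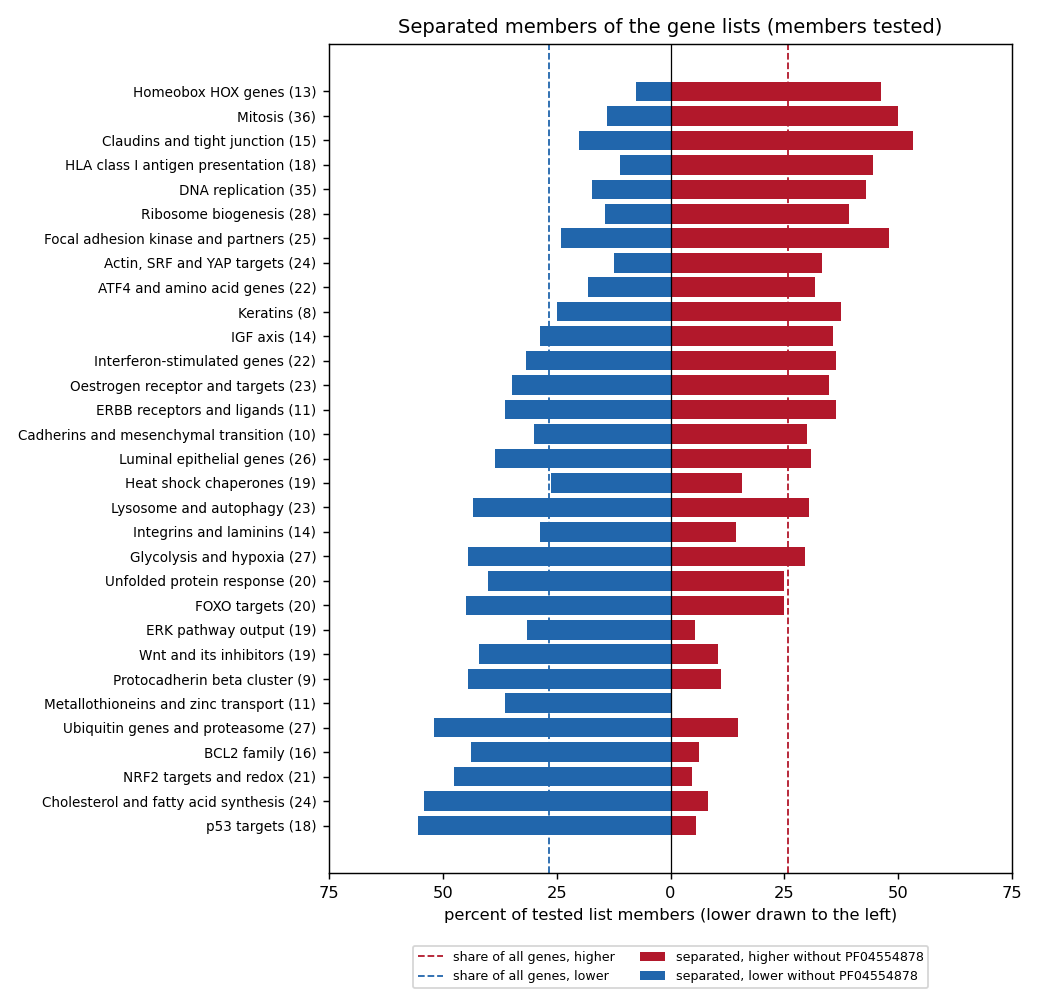
Percent of the tested members of each gene list that were separated, with higher on the lapatinib side drawn to the right in red, lower to the left in blue and the number tested in brackets. Dashed lines mark all genes, 25.9% higher and 26.7% lower, and among the 31 lists drawn the p53 targets reach furthest left with 10 of 18. The cancer-testis antigens, the cell line genes and the markers of other cell types are not drawn.

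FAK and its adhesion partners split, with 12 of 25 higher and 6 lower, and a median of 0.14. SRC, the kinase that docks on active FAK, stood between 9.21 and 9.55 on the lapatinib side and between 7.11 and 7.49 on the PF04554878 side (2.05 ± 0.07). TRIP6 was at least 3.89-fold higher, while ZYX, zyxin, a related adhesion protein, was lower (7.11 to 7.63, against 8.12 to 8.91). Of 14 integrin and laminin genes, 2 were higher, LAMB1 and LAMB2, and 4 lower, with the integrin ITGAV at 8.08 to 8.45 on the lapatinib side, against 8.83 to 9.62. Of 24 genes of actin dynamics and targets of SRF and YAP, 8 were higher and 3 lower. CNN2, a calponin, stood between 10.01 and 10.17 on the lapatinib side and between 7.48 and 7.61 on the PF04554878 side, and CNN3 and FHL2 are given above.

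The oestrogen receptor and its targets moved in both directions, with 8 of 23 higher and 8 lower, 5 and 7 of them at least 2-fold. The progesterone receptor PGR stood at 10.51, 10.59, 10.06 and 10.06 on the lapatinib side, against 8.12, 8.04, 8.24 and 8.13, a rise of 2.17 ± 0.06. SUSD3, another target, was higher by 2.52 ± 0.08, while TFF1, RET and the zinc transporter SLC39A6 (8.55 to 9.01, against 10.64 to 11.43) were lower. GREB1, a cofactor of the receptor, was lower by 0.84. Of 26 luminal epithelial genes, 8 were higher and 10 lower. The Ets factors EHF (at least 4.71-fold) and ELF5 (2.07 ± 0.09) and the mucin MUC1 (12.12 to 12.25, against 9.69 to 10.74) were higher, while GATA3 (-0.82 ± 0.07), FOXA1 (-0.37 ± 0.06) and EPCAM (11.86 to 12.16, against 12.87 to 13.15) were lower.

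Cell surface and structural families gave a mixed picture. For some members the filter on dim probes was met only through the lapatinib side and bore on the direction. These were 2 claudin and tight junction genes, 1 of the cadherins and mesenchymal genes, 2 keratins and 1 protocadherin. Of 15 claudin and tight junction genes 8 were higher and 3 lower, with CXADR, an adhesion protein of epithelial junctions, higher by 1.42 ± 0.09 and CLDN23 lower by 0.85. Of 10 cadherins and mesenchymal genes, 3 were higher and 3 lower, with TWIST1, a mesenchymal transcription factor, at least 2.80-fold higher and CDH18 at least 2.17-fold lower. S100A4, a calcium-binding protein of motile cells, was higher by 1.46 ± 0.07. Among 8 keratins, KRT23, KRT10 and KRT7 were higher and KRT18 (-1.08 ± 0.12) and KRT8 (-0.85 ± 0.07), the pair of simple epithelia, were lower. Of 9 protocadherin beta genes, which are close copies of each other, PCDHB5 was higher by 1.93 ± 0.07 and 4 were lower, PCDHB3 most (6.54 to 6.80, against 8.65 to 9.23). Of 27 HOX genes on the array, patterning factors, 13 were tested, 2 of them only through the lapatinib side, and 6 were higher and 1 lower. The 6 included HOXC4 (1.81 ± 0.07), HOXB2 (at least 2.26-fold) and HOXC13 (1.35 ± 0.08).

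Genes of cell division were higher on the lapatinib side more often than lower. Of 36 mitotic genes 18 were higher and 5 lower, with a median of 0.37, and of 35 DNA replication genes 15 were higher and 6 lower, with a median of 0.31. Only 3 of the mitotic rises and 1 of the replication rises reached 2-fold. NUSAP1, a spindle protein, stood between 10.18 and 10.24 on the lapatinib side and between 8.92 and 9.04 on the PF04554878 side (1.24 ± 0.06). CCNB2, a mitotic cyclin, was higher by 1.11 ± 0.07 and PTTG1, securin, by 1.08 ± 0.07. RFC4, a subunit of the clamp loader, stood between 10.86 and 11.07 on the lapatinib side, against 8.29 to 8.67, whereas TYMS, thymidylate synthase, was lower by 0.99. Among 28 ribosome biogenesis genes 11 were higher and 4 lower, led by RRS1 (1.38 ± 0.06), NOP16 (1.08 ± 0.08) and RRP12 (1.06 ± 0.06), although the median was 0.06.

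Of 18 p53 targets, 10 were lower on the lapatinib side and TP53I3 alone was higher, with a median of -0.43. CDKN1A, the p21 inhibitor of cell cycle kinases, stood at 9.26, 9.11, 9.39 and 9.33 on the lapatinib side, against 11.57 and 11.62 with PF04554878 and 12.31 and 12.10 with PF04554878 plus lapatinib (-2.63 ± 0.13). A second, dimmer CDKN1A probe differed by only -0.10. GDF15, a stress cytokine, was lower by 2.02 on the log2 scale. Of 16 BCL2 family genes 7 were lower and 1 higher. BCL2, which blocks apoptosis, stood between 7.08 and 7.15 on the lapatinib side and between 8.68 and 8.83 on the PF04554878 side, and both lay below the 10.72 of the untreated arrays. Of the other BCL2 probes, one differed by 0.07. BNIP3, a mitophagy receptor, and BCL2L2 were lower by 0.85 and 0.94.

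Proteasome, lipid and redox genes were lower on the lapatinib side more often than higher. Of 27 ubiquitin and proteasome genes 14 were lower and 4 higher, with a median of -0.41. PSMB5, the subunit with chymotrypsin-like activity, stood between 9.84 and 10.15 on the lapatinib side and between 11.62 and 11.92 on the PF04554878 side, and PSMA5 was lower by 1.38, whereas PSMD2 was higher by 1.52 ± 0.06. PSMD6, a regulatory subunit outside the list, was lower with 11.31 to 11.40, against 13.62 to 13.71. Of 24 cholesterol and fatty acid synthesis genes 13 were lower and 2 higher (median -0.36), among them HMGCS1, an early enzyme of cholesterol synthesis (9.09 to 9.99, against 10.92 to 11.29), and the elongase ELOVL2 (-1.30 ± 0.07). Of 21 NRF2 targets and redox genes 10 were lower and 1 higher (median -0.35). ME1, malic enzyme, was below background on the lapatinib side with 6.52 to 6.63, against 9.50 to 9.92, at least 7.45-fold lower, and FTL, the ferritin light chain, was lower by 1.63, while GSTM3, a glutathione transferase, was higher by 1.74 ± 0.07.

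Antigen presentation through HLA class I was among the groups with more rises, 8 of 18 higher and 2 lower (median 0.30). HLA-B stood at 10.41, 10.38, 10.17 and 10.58 on the lapatinib side, against 6.87, 6.86, 6.63 and 6.64 (3.63 ± 0.08, adjusted p = 3.21e-15, limma), and the untreated arrays averaged 6.62. HLA genes vary between people and resemble each other, so the probe may read related genes. PSMB8, an immunoproteasome subunit, was higher by 1.36 ± 0.06 and PSME2, a proteasome activator, lower by 1.54. Interferon-stimulated genes split, with 8 of 22 higher and 7 lower. Of these 22, 3 met the filter on dim probes only through the lapatinib side and 0 only through the PF04554878 side, which bore on their direction. BST2, tetherin, stood between 8.81 and 9.58 on the lapatinib side and between 7.02 and 7.20 on the PF04554878 side, and MX1, an antiviral GTPase, was higher by 1.21 ± 0.09, whereas IFITM3, a barrier to viral entry, was lower (7.55 to 7.76, against 9.92 to 10.35).

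Among stress responses, 3 of 19 heat shock chaperones were higher and 5 lower. BAG3, a co-chaperone, was lower by 1.45, and HSPA1B, whose copy HSPA1A did not separate, was higher by 1.22 ± 0.07. For the unfolded protein response 5 of 20 genes were higher and 8 lower, and the receptors KDELR1 and KDELR3 moved in opposite directions, by 2.81 ± 0.07 and -2.43 ± 0.09. Of 22 ATF4 and amino acid genes 7 were higher and 4 lower, with SHMT2, a mitochondrial serine enzyme, and ATF3 higher by 0.96 each and ATF5 lower by 1.15. Metallothioneins and zinc transporters had 4 of 11 lower and 0 higher, with MT1F at 7.12 to 7.23 on the lapatinib side, against 9.37 to 9.74.

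Metabolic and growth factor groups held some of the larger single differences. Of 27 glycolysis and hypoxia genes 8 were higher and 12 lower. PFKFB3, which makes an activator of glycolysis, stood between 11.59 and 11.81 on the lapatinib side and between 8.59 and 8.88 on the PF04554878 side, while SLC2A1, the glucose transporter GLUT1, was lower with 7.54 to 8.09, against 10.08 to 10.23. Of 23 lysosome and autophagy genes 7 were higher and 10 lower, with LAMP3, a lysosomal membrane protein, at 6.68 to 6.89 on the lapatinib side, against 9.50 to 10.10, and LAMP2 lower by 1.80. Of 14 genes of the insulin-like growth factor axis 5 were higher and 4 lower. IGFBP5, a binding protein of these factors, stood between 12.69 and 13.00 on the lapatinib side and between 9.83 and 10.26 on the PF04554878 side (2.87 ± 0.07), with the untreated arrays at 12.40. H19, an imprinted long noncoding RNA, was higher by 1.67 ± 0.08. Of 19 Wnt pathway genes 2 were higher and 8 lower. Of the 19, 2 met the filter on dim probes only through the lapatinib side, which bore on their direction. Among the 8 lower genes were the receptors FZD6 (at least 2.47-fold) and FZD7 and RNF43, a ligase that removes such receptors (at least 1.46-fold). A second, dimmer FZD7 probe differed by 0.03.

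Separated genes were spread unevenly over the chromosomes, where gene order and chromosome came from RefSeq. On chromosome 2, 55.9% of 737 genes were lower and 6.11% higher on the lapatinib side, with a median difference of -0.34. Chromosomes 14 and 4 leaned the same way, with 40.6% and 40.7% lower. On chromosome 11, 43.0% of 675 genes were higher and 14.5% lower (median 0.21), and on chromosome 3, 40.7% of 629 genes were higher and 17.2% lower (median 0.17). These shares describe the arrays and were not tested.

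**Figure D4:**
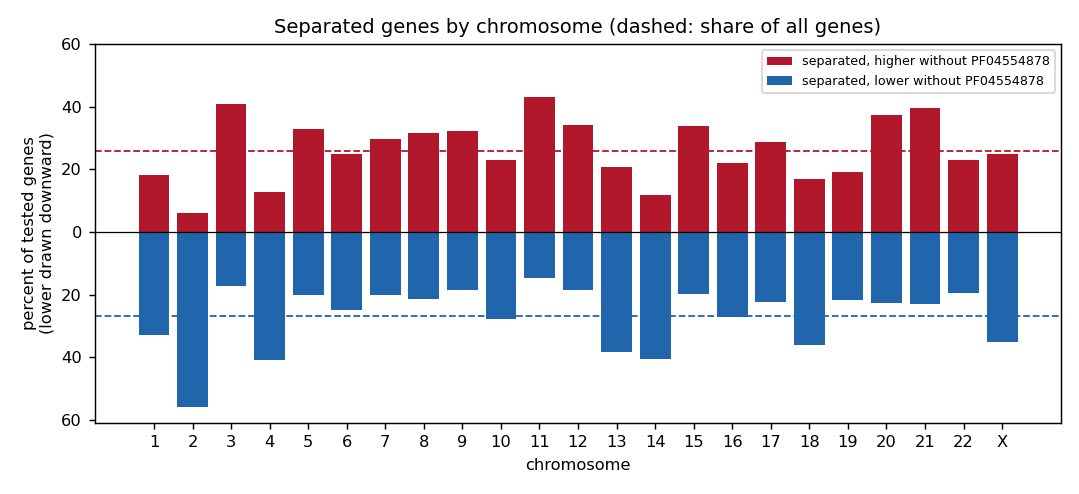
Percent of the tested genes on each chromosome that were separated, with higher on the lapatinib side drawn upward in red and lower drawn downward in blue, and dashed lines for all genes (25.9% and 26.7%). Chromosome 2 reaches 55.9% lower with 6.11% higher, and chromosome 11 reaches 43.0% higher with 14.5% lower.

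Along the chromosomes, runs of 21 neighbouring tested genes were summarised by their median. Over 11082 overlapping runs the 1st percentile of these medians was -0.71 and the 99th 0.66. The lowest run was on chromosome 17, from TEX14 to BCAS3, with a median of -1.61, 18 of 21 genes separated and lower and 0 higher. It held TRIM37, a ubiquitin ligase, at 8.26, 8.40, 8.28 and 8.25 on the lapatinib side, against 11.45, 11.12, 11.55 and 11.83. RPS6KB1, the S6 kinase downstream of mTOR, stood between 8.29 and 8.62 on the lapatinib side and between 11.15 and 11.27 on the PF04554878 side. PPM1D, a phosphatase that restrains p53 signalling, was lower by 2.81 and RAD51C, a DNA repair gene, by 1.86. The segment is known to be amplified in some breast cancers. The untreated arrays differed from the PF04554878 side by a median of -0.15 over the run and from the lapatinib side by 1.08. The genes of these runs are named after their values had been seen.

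A run on chromosome 15 from DTWD1 to ATOSA was lower in 19 of 21 genes, with a median of -1.16, and included MAPK6, an atypical MAP kinase, at 8.47 to 8.97 on the lapatinib side, against 10.61 to 11.28. A run on chromosome 1 from PRMT6 to CYB561D1, which holds HENMT1 and PSMA5, had a median of -0.97, and a run on chromosome 14 from DHRS2 to DHRS1, which holds PSME1, PSME2 and IRF9, one of -0.90. Higher runs outside the GAGE segment of the X chromosome lay on chromosome 3. From ATP11B to POLR2H 17 of 21 genes were higher, with a median of 1.51, including EIF4G1, a translation initiation factor (10.70 to 11.07, against 8.25 to 8.66), and PSMD2, whereas LAMP3 in the same run was lower. Next to it, from VPS8 to CCDC50, 18 of 21 were higher and 0 lower, among them CLDN1 and RFC4. On chromosome 11, from SLC35F2 to SDHD, 19 of 21 genes were higher and 0 lower (median 0.87), ATM, the DNA damage kinase, among them by 0.92 ± 0.09. Within the sides, the medians of all these runs moved by at most 0.19 between labels. The number of gene copies was not measured.

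**Figure D5:**
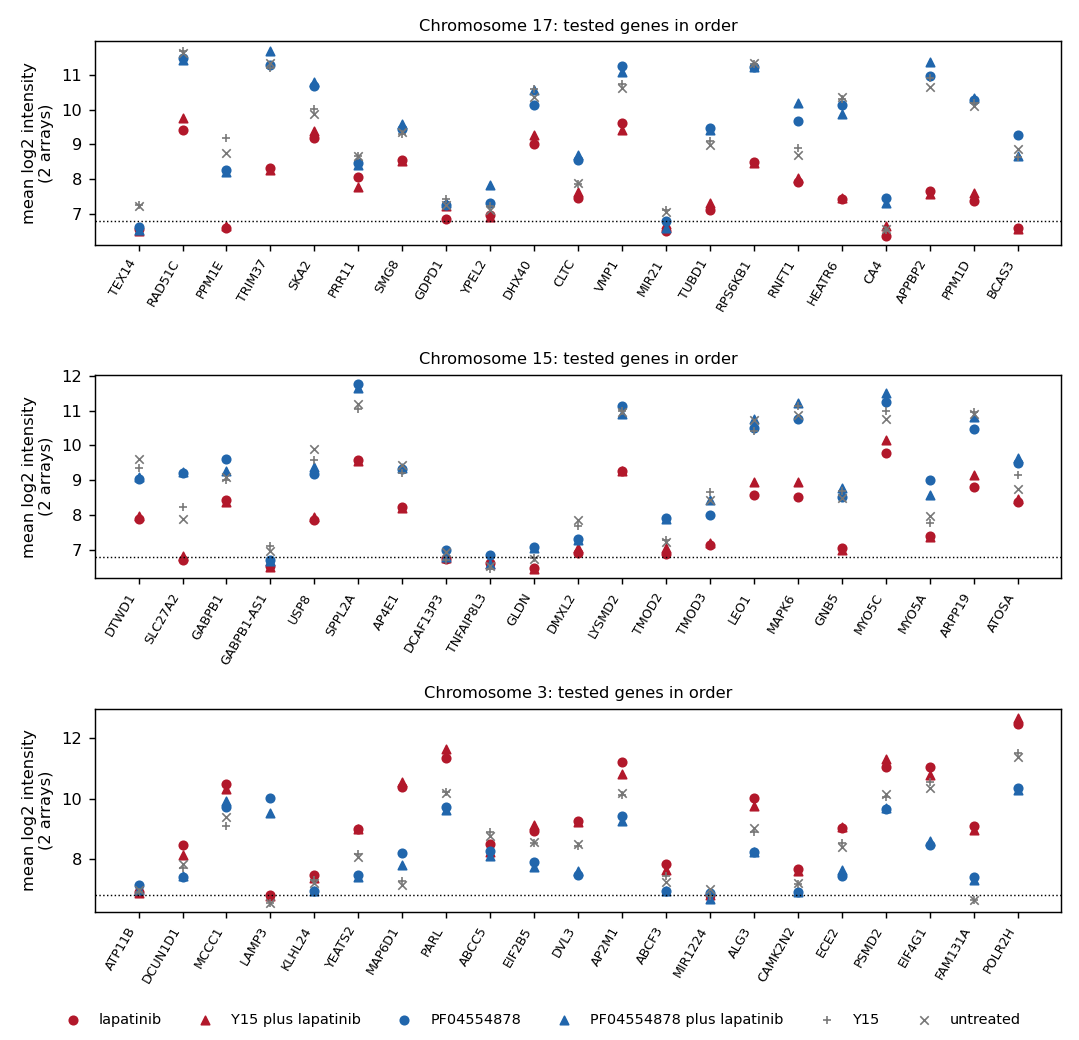
Mean log2 intensity of 21 neighbouring tested genes in the lowest runs, on chromosomes 17 and 15, and in the highest run outside the GAGE segment, on chromosome 3, with red for the lapatinib labels, blue for the PF04554878 labels and grey for Y15 and untreated. Separated with red below blue were 18 of 21 genes on chromosome 17 and 19 of 21 on chromosome 15. Separated with red above blue were 17 of 21 on chromosome 3. Grey lies near blue on chromosomes 17 and 15.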

How the data were processed

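RNA of 12 samples was measured on Illumina arrays. The authors deposited a processed table of log2 probe intensities, made with GenomeStudio per the submitters' processing notes, without a version. How background was handled is not given in the sources used here. Sorted columns differed by at most 0.0146 log2 units, as quantile normalization leaves them. A second deposited table has 24 per-sample columns whose names match no label, and it was not used, so planned steps on raw signals were replaced.

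The background level was taken as the mode of all values (6.55) plus 3 SD (0.0827) of the values below it, a cutoff of 6.80, which 34.4% of probes exceeded on the median array. Of 47318 probes, 30111 had 1 gene symbol, 8 several and 17199 none, and 0 symbols changed when updated through gene numbers. Genes needed a probe above the cutoff on at least 2 of 12 arrays and were represented by the probe with the highest mean. Of 1806 separated genes with further kept probes, 1227 had one separated the same way and 28 one separated the opposite way. Where all probes of a gene were below the cutoff on 1 side, folds are bounds against the cutoff. Precision is limited by the number of arrays.

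Group means were fitted to all 12 arrays with limma 3.58.1 in R 4.3.3 (lmFit, eBayes), with 6 residual degrees of freedom. Benjamini-Hochberg adjustment ran over all genes within each contrast. The script was tested on simulated data. Named genes are the 12 largest separated differences each way (GAGE counted once), the 3 largest of each list, the drug target and cell line genes whatever their values, and 4 each way for 2 pairs and for the tightest separation. The members and lists were chosen with earlier results of these data known. Alternatives were other filters, every probe as a feature, background subtraction with an offset of 16, median centring, the 8 arrays alone, the sides as 2 groups, a block for the replicate number, and every array left out in turn.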

Additional observations from a re-analysis of the deposited data

Results flagged for a closer look

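Among the 286 sets of 4 values that the named genes gave on both sides, 9 (3.15%) held 1 array set apart from the other 3 by more than Dixon's critical value, and chance alone sets apart about 1 set in 20. On the lapatinib side, lapatinib replicate 2 stood at 7.72 for APPBP2 (others 7.57 to 7.60) and at 8.45 for ITGAV (others 8.08 to 8.10), and Y15 plus lapatinib replicate 3 stood at 8.20 for ATF3 (others 8.03 to 8.04) and at 9.09 for PHLDA1 (others 8.94 to 8.96). On the PF04554878 side, PF04554878 replicate 1 stood at 6.48 for ENG (others 6.57), at 12.76 for PSMA5 (others 12.61 to 12.63) and at 11.92 for PSMB5 (others 11.62 to 11.64). PF04554878 replicate 2 stood at 8.39 for LRIG1 (others 8.66 to 8.68), and PF04554878 plus lapatinib replicate 2 at 6.70 for GAGE12C (others 6.51 to 6.52), below the background cutoff.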

How the results depend on the processing

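Across the alternatives run, counts of separated genes stayed within 1.5 times the reported values. Leaving out 1 array loosens the rules on overlap and on detection, which then cover fewer arrays. Counts of genes detected on only 1 side could thus only stay at 350 and 353 or rise, and they carry no weight as a check. Without 1 array, 7074 to 7298 genes passed between the sides, 2981 to 3058 were separated and higher, 3098 to 3240 separated and lower, 365 to 387 were detected only on the lapatinib side and 369 to 388 only on the PF04554878 side. The pairs across the sides gave 5527 to 6564 genes (lapatinib against PF04554878), 5552 to 6580 (lapatinib against PF04554878 plus lapatinib), 5430 to 6288 (Y15 plus lapatinib against PF04554878) and 5321 to 6247 (Y15 plus lapatinib against PF04554878 plus lapatinib). Counts within a side depended more on single arrays. For Y15 plus lapatinib against lapatinib they ran from 299 (without lapatinib replicate 1) to 1315, with 542 without lapatinib replicate 2, and 504 and 620 without Y15 plus lapatinib replicate 1 or 3. For PF04554878 plus lapatinib against PF04554878 they ran from 420 (without PF04554878 plus lapatinib replicate 2) to 947, with 551 without its replicate 1, and 504 and 584 without PF04554878 replicate 1 or 2. These fits hold 1 array fewer, and the lone array is assumed to vary like the other groups. After background subtraction the within-side counts were 513 and 600 in the same order. The cause was not tested.

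Same-numbered arrays shared only a number: their deviations from the group means correlated at -0.33 to 0.18. With the replicate number as a block, 7003 genes passed between the sides, 2867 were separated and higher and 2965 separated and lower, and 510 passed for Y15 plus lapatinib against lapatinib. With every probe as a feature, 9922 probes passed between the sides.

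Of 2227 values of named genes under the alternatives, 2220 kept direction and side of the threshold. FZD7 turned to 0.0303 with a filter on all 12 arrays, which left only its dimmer probe. PGAP3, never called, ran from -0.0643 to 0.0115 without 1 array, and turned to 0.0090 without lapatinib replicate 2, 0.0115 without Y15 plus lapatinib replicate 1 and 0.0070 without PF04554878 plus lapatinib replicate 1. GRB7 lost its call in 2 fits that left out an array, as given above, and MIEN1 passed after median centring (0.16, adjusted p = 0.0484).

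The scale leaves background in, so folds of dim genes are too small, and a signal of up to 6.80 cannot be told from none. Vehicle, culture and array batch are not given in the labels and cannot be told apart from the groups. Whether both sides came from the same cells was not tested, so cell source cannot be told apart from treatment either. On the cell line label, the data go against it.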
